A study of Mus musculus with 26 samples.

Results

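In mouse liver regenerating after partial hepatectomy, 4347 of 113918 C/EBP sites (3.82%) were chosen as members. They were listed for C/EBPbeta at 3 and 36 h but not at 0 or 24 h, and for C/EBPalpha at some time. Sites were made by pooling the centres of the regions in 16 deposited lists, 8 for each factor, and chaining centres at most 100 bp apart. A site was in a list if it held a centre from it. A member had a centre in the C/EBPbeta lists of 3 h and 36 h, none in those of 0 h and 24 h, and at least 1 centre in a C/EBPalpha list. Members were thus chosen by presence or absence in 4 C/EBPbeta lists and in the pooled C/EBPalpha lists, and these values are described without a test.

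C/EBPalpha and C/EBPbeta are related basic leucine zipper transcription factors that bind the same DNA element as dimers. In liver, C/EBPalpha is known for maintaining the differentiated, non-dividing hepatocyte, and C/EBPbeta for the acute phase response and for the response to loss of liver mass. After partial hepatectomy the remaining hepatocytes leave quiescence, pass through an immediate early phase of transcription, copy their DNA and divide.

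The livers came from male C57BL6/J mice, a common laboratory strain, at 7 weeks of age, from which 3 of 5 liver lobes were removed. The tissue taken out at the operation is the 0 h sample, and all other groups are regrowing liver at 3, 8, 16, 24, 36, 48 and 168 h. Chromatin immunoprecipitation with sequencing (ChIP-seq) was made with antibodies to both C/EBP factors and to RNA polymerase II (Pol II) at each of the 8 times, and to the transcription factor Egr1 at 36 h. Livers of 5 mice went into each time point, with 1 library per antibody and time, so no value has a replicate error and no test between times was possible. No sham-operated group and no untreated liver was analysed here, so the operation and the passage of time cannot be told apart. The samples are whole liver, in which fewer cells of a type and less binding per cell cannot be told apart. The summed Pol II level of 9 hepatocyte markers was 381 to 720 across the 8 libraries, against 1.5 to 5.18 for 7 Kupffer cell and macrophage markers, 0.72 to 6.04 for 5 neutrophil markers, 2.10 to 4.38 for 7 endothelial markers, 0 to 3.80 for 5 cholangiocyte markers, 0 to 0.58 for 9 lymphocyte markers and 0 to 0.54 for 8 stellate cell and fibroblast markers. Cd4, Cd8a, Nkg7, Cd3g, Cd79a and Ms4a1 among the lymphocyte genes, Col1a1, Col1a2, Des, Acta2 and Pdgfrb among the stellate genes, and Krt19, Krt7, Spp1 and Tacstd1 among the cholangiocyte genes were at or below 0 in every library. None of the hepatocyte, endothelial, neutrophil, macrophage, lymphocyte or stellate markers had a member site within 1 kb of its start, and among the cholangiocyte markers Sox9 had one.

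Members lay at gene starts more often than other sites did, so promoters that carry a member are shown as sequence. Each run is the 250 bases before the start, 5′ to 3′ on the gene's strand, from RefSeq on GRCm38.p6, and capitals mark 1 match to a motif searched by letters. The deposited regions are on mm9, so the match between a site and the bases shown rests on the distance to the start alone. Pcna and Cdc26 were chosen because a C/EBP match lies under the member site. The other 5 were chosen because a motif of another kind lies near it.
Pcna: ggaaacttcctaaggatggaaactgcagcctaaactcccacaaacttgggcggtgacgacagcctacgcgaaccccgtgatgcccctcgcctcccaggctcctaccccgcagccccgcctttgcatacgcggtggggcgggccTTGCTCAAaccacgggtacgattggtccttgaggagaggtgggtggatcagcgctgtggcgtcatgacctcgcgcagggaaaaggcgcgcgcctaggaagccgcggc
Cdc26: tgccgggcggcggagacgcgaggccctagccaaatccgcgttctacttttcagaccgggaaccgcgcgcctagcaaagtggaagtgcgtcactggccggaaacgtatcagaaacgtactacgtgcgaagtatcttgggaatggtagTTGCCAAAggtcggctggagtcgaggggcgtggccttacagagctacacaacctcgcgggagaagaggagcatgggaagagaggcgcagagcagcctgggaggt
Rfc3: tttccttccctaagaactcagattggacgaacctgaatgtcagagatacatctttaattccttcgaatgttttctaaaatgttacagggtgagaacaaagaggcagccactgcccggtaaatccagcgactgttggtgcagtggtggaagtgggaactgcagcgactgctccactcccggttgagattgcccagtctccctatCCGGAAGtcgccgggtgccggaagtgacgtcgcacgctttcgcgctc
Snrpg: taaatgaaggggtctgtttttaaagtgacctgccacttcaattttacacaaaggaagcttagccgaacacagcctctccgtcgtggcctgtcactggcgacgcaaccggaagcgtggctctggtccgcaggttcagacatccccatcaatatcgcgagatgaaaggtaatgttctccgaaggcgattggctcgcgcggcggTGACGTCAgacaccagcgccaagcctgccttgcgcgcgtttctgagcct
Mrpl12: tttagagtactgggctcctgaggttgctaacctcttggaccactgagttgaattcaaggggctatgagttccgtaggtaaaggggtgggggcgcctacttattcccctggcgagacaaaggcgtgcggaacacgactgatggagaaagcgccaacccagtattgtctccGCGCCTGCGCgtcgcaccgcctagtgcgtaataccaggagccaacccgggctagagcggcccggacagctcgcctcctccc
Taf13: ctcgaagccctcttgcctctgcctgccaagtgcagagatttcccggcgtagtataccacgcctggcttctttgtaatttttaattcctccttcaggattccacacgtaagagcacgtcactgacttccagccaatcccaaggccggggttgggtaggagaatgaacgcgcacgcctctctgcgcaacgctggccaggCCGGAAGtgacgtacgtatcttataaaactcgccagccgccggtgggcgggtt
Psma5: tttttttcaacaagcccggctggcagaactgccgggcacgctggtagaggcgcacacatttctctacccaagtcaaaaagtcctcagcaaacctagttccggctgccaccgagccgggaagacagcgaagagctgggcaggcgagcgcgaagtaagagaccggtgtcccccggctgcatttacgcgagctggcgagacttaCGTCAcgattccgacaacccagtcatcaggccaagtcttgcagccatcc
In the Pcna promoter (chr2:132253181-132253430, minus strand), the capitals mark a C/EBP match 107 to 100 bp before the start, and the member site was centred 96 bp before it. Pcna encodes the sliding clamp that holds DNA polymerases on their template. In the Cdc26 promoter (chr4:62408626-62408875, minus strand), a C/EBP match lies 104 to 97 bp before the start and the site was centred at 99 bp. The RefSeq gene is 2291 bp longer than the deposited row of Cdc26, so the 2 may not share a start, while the other 6 genes shown differ by 1 to 85 bp. Cdc26 is a small subunit of the anaphase-promoting complex, the ubiquitin ligase of mitotic exit. In the Rfc3 promoter (chr5:151651209-151651458, minus strand), the capitals mark an ETS match 47 to 41 bp before the start, with the site at 79 bp. Rfc3 is a subunit of the clamp loader of replication.

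In the promoter of the spliceosome gene Snrpg (chr6:86371290-86371539, plus strand), a full cyclic AMP response element (CRE) lies 49 to 42 bp before the start, and the member site was at 122 bp. In the promoter of the mitochondrial ribosomal gene Mrpl12 (chr11:120484387-120484636, plus strand), an NRF1 match lies at 81 to 72 bp and the site at 73 bp. The promoter of Taf13, a subunit of general factor TFIID (chr3:108571449-108571698, plus strand), has an ETS match at 53 to 47 bp and the site at 93 bp. That of Psma5, a subunit of the proteasome core (chr3:108256676-108256925, plus strand), has a CRE half-site at 49 to 45 bp and the site at 22 bp. A match is a description of the letters and does not show that a factor used them.

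The promoter table held 1026 of the 1325 genes with a member near the start (77.4%) and 14216 of the 20933 measured genes (67.9%). Both are under 80%, so a comparison of motif content between these sets is void, and the shares below only describe the genes present, over 250 bases before to 50 after the start and on both strands. The C/EBP letters TTGCNNAA occurred at 9.06% of promoters near members, 9.27% of all those measured and 20.1% of those near sites of all 8 C/EBPbeta lists. ETS letters CCGGAAG occurred at 21.2% near members and 13.6% of all. The NRF1 motif, GCGC and TGCGC with any 1 base between, was present at 13.4% and 7.81%, and the CRE half-site TGACG at 36.1% and 26.8%. CCAAT occurred at 41.7% and 38.5%, and the full CRE TGACGTCA, which contains the half-site, at 3.02% and 2.62%. Promoters near any C/EBP site had ETS letters at 18.3%, NRF1 at 10.9% and the CRE half-site at 32.6%. Those near sites chosen as members but without C/EBPalpha had them at 21.8%, 14.2% and 33.5%. The shares near members are therefore not to be read as a trait of members. Among the 454 promoters in the table whose member site lay inside the window itself, C/EBP letters were at 11.9%, ETS at 22.5%, NRF1 at 17.0% and the CRE half-site at 43.8%.

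The choice of members left 4347 of 21949 sites that both the 3 h and the 36 h C/EBPbeta list held. Of these 21949, 6218 were missing from the 0 h and 24 h lists, and 1871 of the 6218 were left out because no C/EBPalpha list held them. The median member spanned 114 bp and held 6 regions. A further 15604 sites had both times and C/EBPalpha but also a C/EBPbeta centre at 0 h or 24 h, so that members made up 21.8% of the sites with both times and C/EBPalpha. Just inside the rule, 5 members had a 0 h or 24 h C/EBPbeta centre 101 bp away and 326 had one at 101 to 200 bp. Just outside it, 410 excluded sites had their nearest such centre 51 to 100 bp away. The median member lay 2992 bp from a 0 h or 24 h C/EBPbeta centre, and 790 members (18.2%) had one within 500 bp. Absence from a list is not absence of binding, since the lists differ in length from 20061 to 54574 regions and the longest is C/EBPbeta at 0 h.

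The scores that placed members in the 3 h and 36 h lists were middling. Scores are the authors' and run within each list, so each was turned into a percentile of its own list. The median member stood at the 57.0th percentile of the 3 h C/EBPbeta list and the 46.4th of the 36 h list. Where members also appeared in another C/EBPbeta list, the median was at the 38.0th percentile at 8 h, the 37.5th at 16 h, the 32.5th at 48 h and the 33.8th at 168 h. In C/EBPalpha lists it ran from the 27.9th at 24 h to the 42.5th at 8 h. Members thus held lower ranks in the lists that the rule did not use than at 3 h.

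C/EBPalpha, whose time of binding the rule did not use, was found on members least often at the times when C/EBPbeta was absent by choice. C/EBPalpha lists held 17.0% of members at 0 h (Wilson 95% interval 15.9 to 18.1), 50.4% at 3 h, 23.3% at 8 h, 33.4% at 16 h, 9.87% at 24 h (9.02 to 10.8), 44.7% at 36 h, 46.3% at 48 h and then 60.1% at 168 h. Sites in both factors at any time, 50062 in all, ranged less widely, from 38.8% at 48 h to 59.5% at 3 h, and stood at 52.5% at 0 h and 53.6% at 24 h. Shares at 0 h and 24 h below those of sites in both factors were not particular to members. Sites with C/EBPalpha and with C/EBPbeta at 3 h but not at 0, 24 and 36 h stood at 17.5% and 8.94%. Their share was lowest at 24 h, but 16 h (14.6%) and 36 h (13.9%) also lay below 0 h. Those with C/EBPbeta at 36 h but not at 0, 3 and 24 h stood at 20.4% and 26.2%. In that set 24 h was not low, since it lay above 3 h (22.9%), and 48 h was lowest (15.8%). Intervals cover counting error over sites, which are not replicates of a condition.

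Of the members, 3026 (69.6%) were in a C/EBPalpha list of 3 h or 36 h and 994 (22.9%) in one of 0 h or 24 h. C/EBPalpha at 3 h or 36 h without 0 h and 24 h was seen at 2183 members, and the opposite at 151. Both factors shared both times, 3 h and 36 h, at 1112 members (25.6%). At 1170 members C/EBPalpha was in none of the 4 lists of 0, 3, 24 and 36 h. The rule asked for 1 C/EBPalpha list, and 1286 members had exactly 1, 873 had 2, 761 had 3 and 41 had all 8.

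Sites with the reverse pattern, in the C/EBPbeta lists of 0 h and 24 h but not of 3 h and 36 h and with C/EBPalpha at some time, numbered 3335. Their C/EBPalpha shares ran the other way, at 65.3% at 0 h, 46.6% at 3 h, 45.0% at 8 h, 52.0% at 16 h, 73.5% at 24 h, 37.9% at 36 h, 7.56% at 48 h and then 16.4% at 168 h. The 9253 sites in all 8 C/EBPbeta lists showed little of either course, with C/EBPalpha at over 93% of them at each time. The antibodies were different but the livers were of the same time points, and a difference in chromatin between time points cannot be told apart from a change in binding.

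In the 4 C/EBPbeta lists that the rule did not use, the share of members present was 51.1% (8 h), 29.1% (16 h), 38.2% (48 h) and 42.8% (168 h). No other C/EBPbeta list held 1112 members (25.6%), and all 4 others held 437 (10.1%). The reverse sites were at 62.0% at 8 h and 54.5% at 16 h but at 9.93% at 48 h and then 22.4% at 168 h. Members therefore stood higher than reverse sites in the late lists and lower in the lists of 8 h and 16 h. With the 20061 top-scoring regions of every list in place of the full lists, 3687 members were found. Their C/EBPbeta shares were 44.6% (8 h), 34.9% (16 h), 62.7% (48 h) and 54.5% (168 h), so that 48 h became the highest of the 4. Their C/EBPalpha shares were 21.3% at 0 h, 53.6% at 3 h, 24.2% at 8 h, 38.5% at 16 h, 11.8% at 24 h, 52.0% at 36 h, 69.8% at 48 h and then 69.2% at 168 h. The lists of 48 h are the shortest of each factor, and the shares at 48 h moved most.

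**Figure D1:**
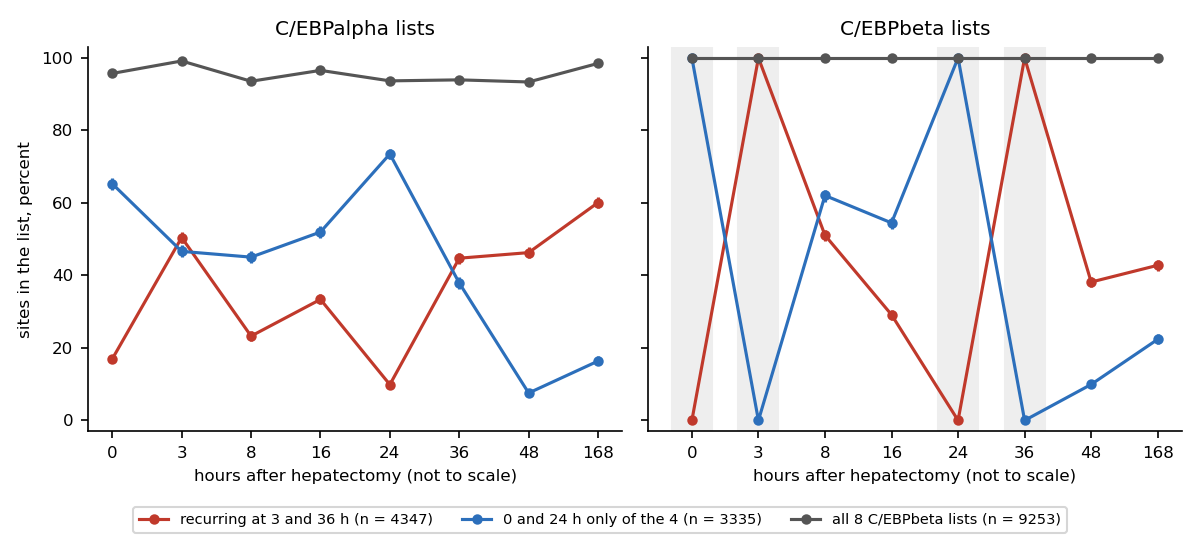
Share of sites (vertical axis, percent) found in each C/EBPalpha list (left) and C/EBPbeta list (right) by hours after hepatectomy (horizontal axis, equally spaced times), for the 4347 members in red, the 3335 sites of the reverse pattern in blue and the 9253 sites of all 8 C/EBPbeta lists in grey. Vertical lines are Wilson 95% intervals, mostly within the points; shaded times on the right were fixed by the rule, and on the left the red points are lowest at 24 h and 0 h, where the blue points are highest.

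Members differed from other sites in their position. A gene start lay within 1 kb of the centre at 1242 of 4347 members, a share of 28.6% (27.2 to 29.9). The share was 6.33% (5.55 to 7.20) of the reverse sites, 13.3% (12.6 to 14.0) of sites in all 8 C/EBPbeta lists, 11.5% of sites in both factors and 9.70% of all sites. These intervals did not overlap that of the members. Starts are those of the deposited Pol II gene rows moved back by 500 bp against the strand.

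Sites found at one of the times 3 h and 36 h but not the other, and likewise with C/EBPalpha and without the 0 h and 24 h C/EBPbeta lists, did not share this position. At 3 h without 36 h there were 3657 sites, 10.1% (9.21 to 11.2) within 1 kb of a start, and at 36 h without 3 h there were 1404, 14.3% (12.6 to 16.2). The 15604 sites that had 3 h, 36 h and also 0 h or 24 h stood at 14.9% (14.3 to 15.5). The 1871 sites chosen as members but without C/EBPalpha stood at 36.3% (34.2 to 38.5), above the members. Asking for C/EBPalpha in at least 4 lists gave 1427 members with 24.2% near a start.

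The lists themselves differed in the same direction. The regions of the C/EBPbeta lists at 3 h and 36 h lay within 1 kb of a start at 17.4% and 17.1%, the highest shares of the 16 lists, and those at 0 h and 24 h at 7.54% and 8.98%. For C/EBPalpha the shares were 9.78% at 0 h and 8.16% at 24 h, and 12.1% and 13% at 3 h and 36 h. A property of these libraries that raises promoter regions at 3 h and 36 h as a whole was not tested, and with 1 library per time it cannot be told apart from the time point. The share among members was higher than in either list that gave them.

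Within the promoter members the centres crowded just before the start. The nearest start was within 100 bp at 381 members (8.76%), within 250 bp at 695 and within 500 bp at 967. The 100 bp before the start held 245 members, the next 100 bp upstream 149, and the first 100 bp past the start 135. Of the 1242, 57.6% lay upstream, against 60.1% of the sites of both factors within 1 kb. At the other end, 2066 members (47.5%) lay over 10 kb from any start and 724 over 50 kb, and 31.7% lay inside a measured gene over 1 kb past its start. The median distance was 8481 bp, against 28022 bp for reverse sites and 19183 bp for sites in all 8 lists. At least 2 starts lay near 112 of the members.

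**Figure D2:**
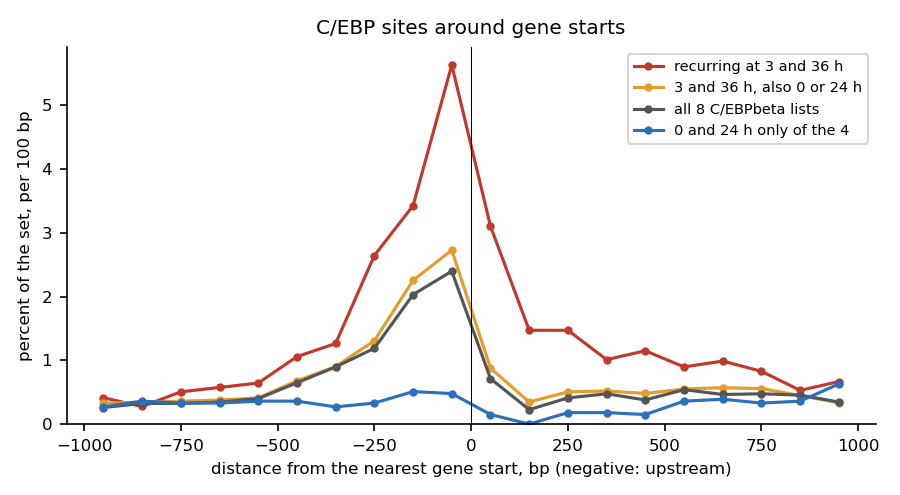
Distance of the site centre from the nearest gene start (horizontal axis, bp, negative upstream, bins of 100 bp) against the percent of each set falling in the bin (vertical axis). Members in red peak in the 100 bp before the start, at 5.64% of all members, above the sites that also had 0 h or 24 h C/EBPbeta, the sites of all 8 lists and the reverse sites.

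Promoter members and distal members were seen with C/EBPalpha on different courses. Among the 1242 promoter members, C/EBPalpha lists held 149 at 0 h, or 12%, 45.2% at 3 h, 12.7% at 8 h, 51.2% at 16 h, 5.15% at 24 h, 43.9% at 36 h, 38.2% at 48 h and then 49.9% at 168 h. Among the 2066 members over 10 kb away the shares were 19.1%, 53.9%, 29.8%, 25.5%, 12.7%, 43.9%, 49.5% and 64.9%. The widest gaps were at 16 h, higher at promoters, and at 8 h, higher at distal members. At 0 h and 24 h both kinds were low.

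Egr1, a zinc finger factor of the immediate early class, met few of these sites at 36 h. The centre of 204 members (4.69%, 4.10 to 5.36) lay in 1 of the 9895 Egr1 peaks, against 12.1% (11.1 to 13.3) of reverse sites, 26.2% (25.3 to 27.1) of sites of all 8 C/EBPbeta lists and 7.33% (7.18 to 7.48) of all sites. The share was 6.21% of sites at 3 h without 36 h and 7.34% of those at 36 h without 3 h. It was 1.92% (1.39 to 2.65) of sites chosen likewise without C/EBPalpha, so a low share is not particular to members. Among promoter members the share was 1.77% (22 of 1242), against 4.34% of all sites within 1 kb of a start. Among members over 1 kb from a start it was 5.86% (182 of 3105), against 7.65% of all such sites. Of the Egr1 peaks, 4.54% lay within 1 kb of a start. With only the Egr1 peaks scoring above the median of their list the share of members was 2.44%, with no 0 h or 24 h C/EBPbeta centre within 500 bp it was 3.12%, and with C/EBPalpha in at least 4 lists it was 7.15%.

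**Figure D3:**
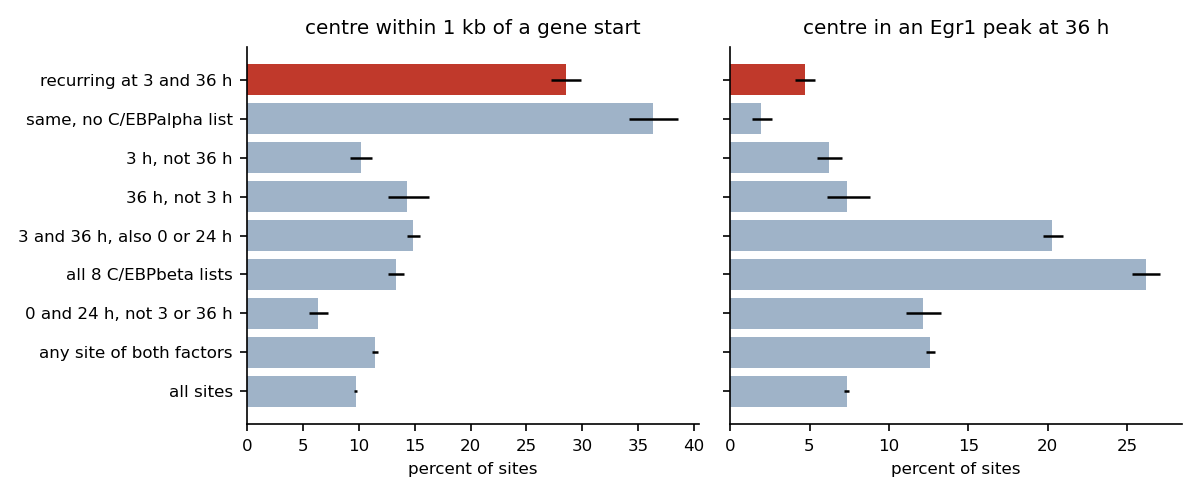
Percent of sites (horizontal axis) whose centre lay at most 1 kb from a gene start (left) or inside an Egr1 peak of the 36 h library (right), for the members in red and 8 other sets of sites in blue-grey. Lines are Wilson 95% intervals. On the left the members stand above every set but the one chosen likewise without C/EBPalpha. On the right they stand below every set but that same one.

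The best-scoring distal members, chosen as the 3 over 10 kb from any start with the highest lower percentile in the 3 h and 36 h lists, were spread over 3 chromosomes of mm9. The site chr4:99602588-99602683 lay 25964 bp before the start of Pgm2, which encodes a sugar phosphate mutase, outside any measured gene. It stood at the 98.7th and 98.5th percentiles and in the C/EBPalpha lists of 3, 16, 48 and 168 h. The site chr11:101240501-101240783 lay 11554 bp past the start of G6pc, the catalytic subunit of glucose-6-phosphatase and the last step of hepatic glucose release. It was in an Egr1 peak and stood at percentiles 99.2 and 97.6. The site chr1:62771824-62771876 lay inside Nrp2, which encodes the receptor neuropilin 2, 21571 bp past the start, also in an Egr1 peak.

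A member lay within 1 kb of the start of 1325 of 20933 measured genes (6.33%). Of these genes 29 had more than 1 member. A site of all 8 C/EBPbeta lists was also present at 42 of them (3.17%), against 6.17% of all measured genes. A site chosen likewise without C/EBPalpha was present at 45 (3.40%), against 3.49%. No member can be a site of either kind, and centres at most 100 bp apart form 1 site. These overlaps are thus partly fixed by the rule. The genes near members are described here by lists of genes with a shared role, and no enrichment test was run on them. A C/EBP site of any kind lay within 1 kb of the start at 41.2% to 96.2% of the genes of each list, against 37.5% of all measured genes, so the lists differ from all genes in C/EBP sites of other kinds too. Counts of members below are to be read against 6.33%, and counts of sites of all 8 C/EBPbeta lists against 6.17% of all measured genes. Of the 4761 genes with enough Pol II to be compared below, 537 (11.3%) had a member. Lists made mostly of such genes are also to be read against that share.

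Among 61 measured genes of DNA replication and the passage from G1 to S phase, 8 had a member (13.1%), and 3 had a site of all 8 lists (4.92%). A site chosen likewise without C/EBPalpha lay at 10 of them (16.4%), against 3.49% of all measured genes, so these genes are not particular to members. Clamp and clamp loader genes were Pcna (chr2:132078945-132079111 on mm9, in the C/EBPalpha lists of 16 and 36 h), Rfc3 (chr5:152453817-152453898, C/EBPalpha at 3 and 36 h) and Rfc4 (chr16:23127814-23127859, C/EBPalpha at 16 h). Subunits of the replicative helicase were Mcm7 (731 bp past the start) and Mcm4 (329 bp before it), and Orc3l, now Orc3, belongs to the complex that marks origins. Cdk4, the kinase that D-type cyclins activate in G1, had its member 185 bp before the start, and Rb1, the tumour suppressor which that kinase phosphorylates, 791 bp past it. By rank in the 2 C/EBPbeta lists, Orc3l stood highest, at the 82.5th and 85.5th percentiles, and Rb1 lowest, at the 21.4th and 9.90th.

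Of 46 genes of G2 phase and mitosis, 4 had a member (8.70%). These were Cdc25a, a phosphatase that activates cyclin-dependent kinases (3 bp from the start), Bub3 and Ttk of the spindle checkpoint (124 and 249 bp) and Prc1, a bundler of the central spindle (251 bp). With lists of equal length 8 mitosis genes had a member, without the 24 h C/EBPbeta list 7 had one, and with C/EBPalpha in at least 4 lists the counts were 1 for mitosis and 1 for replication. Of 13 subunits and activators of the anaphase-promoting complex, 3 had one, Cdc26, Anapc2 and Anapc10, at 99, 68 and 115 bp. DNA repair had 7 of 35 genes, among them Blm, a helicase of recombination, Atr, a checkpoint kinase, Fanca of the cross-link repair pathway and Xpa of excision repair. A site of all 8 lists lay at 10.9% of the mitosis list, 7.69% of the anaphase-promoting list and 14.3% of the repair list.

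Genes of RNA and protein production were also represented. The spliceosome list had 10 of 49 (20.4%), including Snrnp70, Snrpd2 and Snrpg of the small nuclear particles and Sfrs7, now Srsf7, a splicing regulator. The list of Pol II, general factors and Mediator had 10 of 77 genes, including 6 Mediator subunits, Med6, Med9, Med11, Med19, Med20 and Med27. Translation factors and tRNA synthetases had 8 of 61 (13.1%), with Eef1a1, the elongation factor that delivers aminoacyl-tRNA, carrying 2 members. Ribosome biogenesis had 6 of 54 (11.1%), the proteasome 4 of 37 (10.8%), where Ftsj3 of the former and Psmc5 of the latter share 1 member between their starts, and the respiratory chain 7 of 71 (9.86%). Cytosolic and mitochondrial ribosomal proteins had 6 of 71 (8.45%) and 6 of 72 (8.33%), near the 6.33% of all measured genes. These shares and those of ribosome biogenesis, the proteasome and the respiratory chain did not exceed the 11.3% of genes compared for Pol II. A site of all 8 lists lay at 16.3% of the spliceosome list, 9.09% of Pol II and general factors and 27.9% of translation factors. It lay at 3.70% for ribosome biogenesis, 8.11% for the proteasome, 11.3% for the respiratory chain, and 12.7% and 4.17% for the ribosomal proteins.

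The lists of liver-specific genes held 1 member or none. None of 26 acute phase genes had one, although 22 of them (84.6%) had a site of all 8 C/EBPbeta lists. For 21 genes of drug metabolism the count was likewise 0, and 2 of them (9.52%) had a site of all 8 lists. Of 26 plasma protein genes, 12 had a site of all 8 lists and 1 a member, Ambp, which encodes the precursor of alpha-1-microglobulin and bikunin. Their Wilson intervals, up to 12.9% for the acute phase, 15.5% for drug metabolism and 18.9% for plasma proteins, all include 6.33%. The interval of the member share included 6.33% also for mitosis, ribosome biogenesis, the proteasome, the respiratory chain, both kinds of ribosomal protein, the immediate early genes, the unfolded protein response and the ETS, E2F, SP, EGR and NRF factors. It lay above 6.33% for the other lists. Of these, only the spliceosome interval (11.5 to 33.6) also lay above 11.3%, the share among genes compared for Pol II. This is no test of enrichment, since the lists were chosen with earlier results of these data known. Those lists also had C/EBP sites of any kind more often than all measured genes, for translation factors and tRNA synthetases 77.0% against 37.5%.

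Regulators gave smaller numbers. The immediate early list had 3 of 25 genes, namely Jun and Jund, which each encode an AP-1 subunit, and Klf10, a zinc finger repressor. The list of C/EBP, ATF and CREB factors had 4 of 21 (19.0%), namely Creb3l3, Atf5, Tef and Creb1, all basic leucine zipper proteins like the C/EBP factors. The unfolded protein response had 3 of 26 (11.5%), the chaperones Hspa5 and Calr and the amino acid enzyme Asns, against 12 with a site of all 8 lists. Of 34 ETS, E2F, SP, EGR and NRF factors 1 had a member, Etv6.

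**Figure D4:**
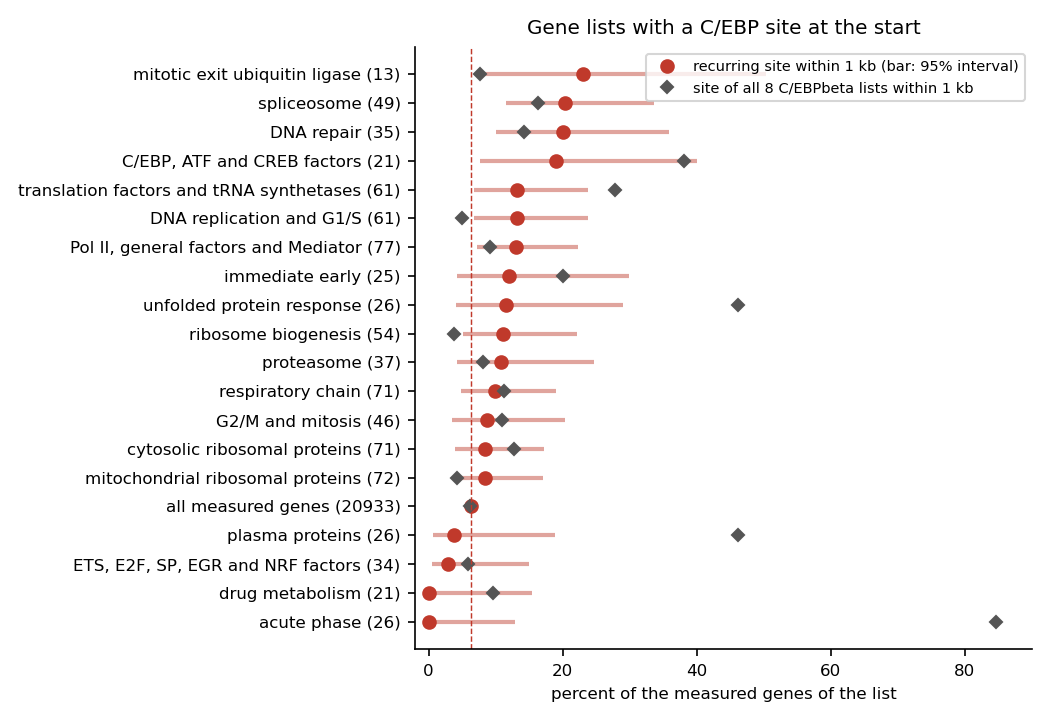
Percent of the measured genes of each list (horizontal axis, number of genes in parentheses) with a member within 1 kb of the start (red points, bars are Wilson 95% intervals) or with a site of all 8 C/EBPbeta lists (grey diamonds). The dashed line is the share of members over all measured genes, 6.33%; acute phase and plasma protein genes have high grey and low red values.

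The strongest promoter members by rank were at Ctsl, Hjurp, Tcf25, Lats2, Fem1c, Sephs2, the pair a2ld1 and 4930594M22Rik, Hspa4 and Gmeb2. At Ctsl, which encodes the lysosomal protease cathepsin L, the site chr13:64471715-64471842 stood at the 98.9th percentile at 3 h and the 98.7th at 36 h, and every C/EBPalpha list but that of 0 h held it. It also lay in an Egr1 peak, unlike the other 9 genes. Hjurp, the chaperone that loads the centromeric histone, had its member 903 bp before the start and in 1 C/EBPalpha list, that of 3 h. Hspa4, a heat shock protein of the Hsp110 class, had C/EBPalpha at 16 h alone. Lats2, a kinase of the Hippo pathway that restrains organ growth, had its member 615 bp past the start, in 6 C/EBPalpha lists.

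Pol II was measured over gene bodies to see whether the recurrence of these sites went with transcription of the genes beside them. Levels are the deposited Pol II score divided by the measured width of the gene and rescaled between libraries, so they are per bp. A gene was compared if its level was above 0.5 in at least 2 libraries, which 4761 measured genes were. Of the 1325 genes near members, 537 passed (40.5%), and they were 11.3% of all that passed. Of all measured genes 22.7% passed, and of genes with any C/EBP site within 1 kb of the start 39.3%. The share of 40.5% is thus not particular to members. Changes are on the log2 scale after adding 0.5, which understates those of low genes, and with 1 library per time they have no error.

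Pol II changes near members are given beside those over all genes compared, and the differences have no test. At 3 h against 0 h, 75 of the 537 genes (14.0%) were higher by 1 or more and 123 (22.9%) lower, where 18.1% and 21.4% of all genes compared were. The median change was -0.14 near members and -0.08 over all. At 3 h against 24 h, 89 (16.6%) were higher and 152 (28.3%) lower, against 17.8% and 26.4% of all, with medians of -0.28 and -0.19. At 36 h against 24 h, 57 (10.6%) were higher and 20 (3.72%) lower, against 11.1% and 4.12% of all, with medians of -0.01 in both. Against 0 h, 77 genes (14.3%) were higher and 68 (12.7%) lower at 36 h, where 16.5% and 11.1% of all were, and 74 (13.8%) were higher and 83 (15.5%) lower at 24 h, where 18.4% and 14.4% of all were. Without rescaling, the median over all genes moved from -0.08 to -0.25 at 3 h against 0 h, from -0.19 to -0.03 at 3 h against 24 h and from -0.01 to 0.29 at 36 h against 24 h, and those near members moved with them, to -0.34, -0.09 and 0.30.

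The joint pattern that the C/EBPbeta lists have by choice was counted in Pol II too, with no test of the difference from all genes. Pol II at 3 h and at 36 h was above both 0 h and 24 h at 86 of 537 genes (16.0%), against 17.4% of all, and below both at 96 (17.9%), against 16.8%. Higher by 1 or more at both 3 h against 0 h and 36 h against 24 h were 13 genes (2.42%), against 3.61% of all. Lower at both were 9 (1.68%), against 1.34%, namely Romo1, 2610204G22Rik, 1810046J19Rik, Tbx3, Uox, Prdx6, Utp3, Rps27a and Nkapl, singled out here after their values were seen.

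The 3 h Pol II library stood apart, with 69.2% of measured genes below 0 against 51.7% to 59.5% in the other 7, and a deposited sum below 0. Lower values at 3 h are therefore to be read beside that library. The genes compared near members were at or below 0 at 19.0% at 3 h, as were 19.0% of all genes compared, against 2.79% and 3.07% at 36 h.

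The immediate early genes near members had high Pol II in the earliest libraries. The level of Jun was 46.8 at 0 h, 37.6 at 3 h, 7.99 at 8 h, 6.09 at 16 h, -0.57 at 24 h, 6.79 at 36 h, 11.1 at 48 h and then -3.16 at 168 h. It was thus highest in the removed tissue, and its member had C/EBPalpha at 3, 16 and 36 h. Jund stood at 40.9, 32.5, 9.98, 14.6, 5.14, 9.22, 12.8 and 4.72 over the same times, and Klf10 at 10.3, 11.3, 5.22, 5.17, 0.66, 1.64, 1.48 and 3.87. All 3 were lower at 24 h than at either 3 h or 36 h, and their changes at 3 h against 0 h were -0.31, -0.33 and 0.12, so that Pol II was also high at 0 h, when their members were not in the C/EBPbeta list.

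The genes near members with the highest Pol II at 3 h relative to 24 h were Jun, Foxq1, Ddit4, Phf23 and Scd1. Ddit4, a stress-induced inhibitor of the growth kinase mTORC1, was at 2.15 at 0 h, 77.5 at 3 h, 9.74 at 8 h, 10.2 at 16 h, 2.19 at 24 h, 5.87 at 36 h, 2.29 at 48 h and then 0.68 at 168 h. Its member, 48 bp past the start, was in the C/EBPbeta lists of 3 h and 36 h and the C/EBPalpha list of 8 h alone. Scd1, the desaturase that makes monounsaturated fatty acids, was at 0.02, 6.72, 0.14, -0.17, -0.02, 3.15, 0.10 and 0.63. Its member lay 22 bp past the start and was also in the C/EBPalpha list of 36 h alone. Pol II was above 1 at 3 h and 36 h only. The rule fixed C/EBPbeta at these times and Scd1 was named for its Pol II rises, so their coincidence follows from the choice.

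Phf23, a PHD finger protein, was at 4.45, 9.19, 2.61, 4.19, -0.38, 2.63, 3.85 and 0.67, low at 24 h and 168 h. Foxq1, a forkhead factor, was at 7.23, 15.0, 2.25, 1.59, -0.52, -0.05, 10.7 and -8.00, and so not high at 36 h. At 36 h against 24 h the largest rises near members were at Jun, Zbtb12, Scd1, Mab21l2 and Phf23. Each was below 0 at 24 h and was set to 0 there, so these rises are measured from the floor. For Zbtb12 the levels ran 3.58, 1.43, 0.71, 4.08, -0.10, 3.96, 1.44 and -1.37, and for Mab21l2 -2.49, 2.38, 0.31, 4.02, -0.68, 2.92, -0.05 and -3.65. Jun, Foxq1, Phf23 and Zbtb12 were below 0 at 24 h and above 3 at 0 h, both times whose C/EBPbeta lists lacked the member by choice.

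The lowest values at 3 h relative to 24 h were at Pitx3, Rps27a, Uox, Romo1 and Slc25a23. Uox, the peroxisomal enzyme that breaks down urate, was at 11.6 at 0 h, 0.91 at 3 h, 14.6 at 8 h, 3.07 at 16 h, 11.5 at 24 h, 5.42 at 36 h, 8.93 at 48 h and then 38.0 at 168 h, so 3 h was the lowest of the 8. Its member, 590 bp before the start, was in 6 C/EBPalpha lists, all but 0 h and 3 h. Slc25a23, a calcium-dependent carrier of the inner mitochondrial membrane, was at 3.29, 0.12, 2.52, 4.54, 4.56, 3.85, 4.32 and 3.00, again lowest at 3 h. Romo1, a mitochondrial membrane protein, was at 1.31, 0.13, 2.21, 1.52, 4.66, 1.80, 2.73 and 1.90.

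Rps27a, which encodes ubiquitin fused to a ribosomal protein, was at 1.53, -0.24, 2.77, 1.31, 4.25, 1.14, 2.63 and 3.16, and has near-identical copies, so its value is uncertain. Pitx3, a homeobox factor, was below 0 at 0, 3, 8 and 168 h and between 5.69 and 7.70 at 16, 24 and 36 h. At 36 h against 24 h the largest falls were at Ssr4, 2610204G22Rik, 1810046J19Rik, Mrpl52 and Nkapl. The ChIP signal carries no strand, so 2610204G22Rik, an antisense transcript by its current name Atad3aos, cannot be told apart from genes that overlap it. All 5 had 24 h levels of 1.13 to 1.63 and 36 h levels at or below 0.

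Genes of the cell cycle near members mostly had too little Pol II to be compared. This was not particular to members, since 6 of all 61 replication genes and 8 of all 46 mitosis genes passed. Of the 8 replication genes near members, Mcm7 and Cdk4 passed. Mcm7 was at 4.13 at 0 h, 3.05 at 3 h, 2.14 at 8 h, 2.81 at 16 h, 2.14 at 24 h, 5.03 at 36 h, 2.68 at 48 h and then 1.2 at 168 h, highest at 36 h, with a change of 1.07 from 24 h. Cdk4 was at 3.57, 5.28, 4.12, 3.34, 2.40, 3.43, 3.54 and 3.61, highest at 3 h. Pcna passed the minimum in 1 library, at 36 h, with levels of -0.14, -0.13, 0.25, -0.06, 0.40, 1.29, 0.44 and 0.23. Mcm4 was at 0.43 at 36 h and at or below 0.08 at the other 7 times. Orc3l exceeded the minimum in 1 library, at 24 h, and Rfc3, Rfc4 and Rb1 in none.

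None of the 4 mitosis genes passed, and Cdc25a and Prc1 had their highest levels at 36 h, 0.15 and 0.26. Hjurp, which did pass, was at 0.44, -1.29, 0.59, 1.37, 0.79, 3.29, 0.86 and 1.72, highest at 36 h and below 0 at 3 h. The members at these genes were in the C/EBPbeta lists at both times. Pol II was highest at 36 h at Mcm7, Pcna, Mcm4 and Hjurp and highest at 3 h at Cdk4, while Rb1, Orc3l and Bub3 had lower levels at 36 h than at 24 h.

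**Figure D5:**
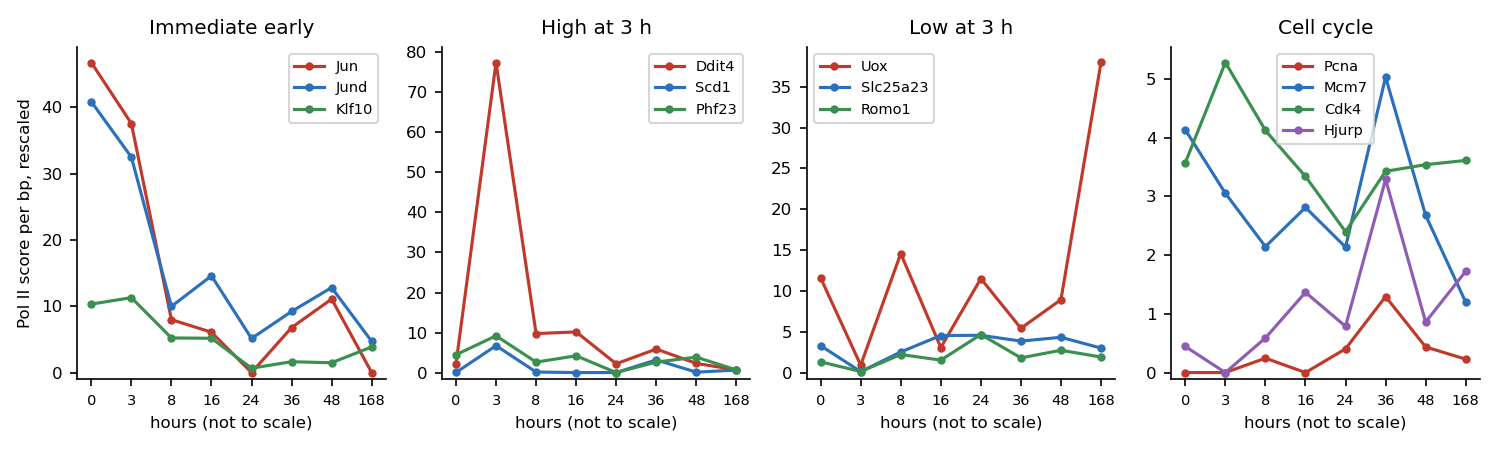
Pol II level over the gene body (vertical axis, rescaled score per bp, values below 0 drawn at 0, scales differ between panels) by hours after hepatectomy (horizontal axis, equally spaced times) for 13 genes with a member within 1 kb, 1 library per point. Ddit4 peaks at 3 h, Jun and Jund are highest at 0 h, Uox is lowest at 3 h, and Mcm7, Pcna and Hjurp are highest at 36 h.

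Among the leucine zipper factors near members, Creb3l3, a membrane-bound liver factor, had Pol II at every time, at 16.4, 15.7, 14.0, 14.5, 14.8, 10.7, 12.7 and 9.70. Atf5, a factor of the amino acid and stress response, was at 0.52 at 0 h and 4.57, 3.89, 10.1, 3.78, 3.50, 3.19 and 1.25 at the later times, with C/EBPalpha in 5 lists. Tef, a clock-controlled factor, was at 3.83 at 0 h, 0.44 at 3 h, 1.84 at 8 h, 0.58 at 16 h, 2.03 at 24 h, 1.55 at 36 h, 1.71 at 48 h and then 3.46 at 168 h. The 3 thus differed in course although each had C/EBPbeta at the same 2 times by choice.

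Ambp, the plasma protein gene with a member, had Pol II at 4.0, 29.9, 11.9, 8.52, 7.25, 9.77, 13.8 and 6.04, highest at 3 h. Its member, 109 bp before the start, stood at the 68.9th percentile at 3 h and the 13.7th at 36 h, with C/EBPalpha at 0, 3, 24, 48 and 168 h. Hspa5, the main chaperone of the endoplasmic reticulum, was at 4.65, 5.64, 11.0, 16.0, 5.80, 2.96, 5.59 and 3.14, and Calr, a lectin chaperone, at 5.05, 3.59, 6.95, 12.2, 6.10, 3.85, 3.35 and 0.63. Both were highest at 16 h, and C/EBPbeta was present at Hspa5 but not at Calr at that time.

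Among the most highly occupied genes, Sephs2, an enzyme that makes selenophosphate, had Pol II at 105 at 0 h, 30.4 at 3 h, 31.8 at 8 h, 21.2 at 16 h, 38.1 at 24 h, 30.1 at 36 h, 30.9 at 48 h and then 44.6 at 168 h. It was highest at 0 h, where C/EBPbeta was absent by choice. Ctsl was at 3.22, 6.04, 4.33, 1.94, 3.54, 1.97, 2.71 and 5.36, higher at 3 h than at 0 h or 24 h but lower at 36 h than at 24 h. Tcf25 stood at 1.39 at 3 h and at 0.27 to 1.04 at the other times. Eef1a1 was at 26.4, 30.4, 17.6, 18.9, 16.3, 18.2, 16.8 and 12.5, highest at 3 h and 0 h. The gene has many processed copies, so its level is uncertain.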

How the data were processed

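ChIP-seq of whole mouse liver was analysed at 8 times, with 1 library per antibody and time. The submitters' processing notes name Bowtie 0.12.7, MACS 1.4.1 and mm9 but give no roles. Not given in the sources used here are the caller of the C/EBP regions, library batches and the scaling of Pol II, and depth is unknown. The deposited C/EBP lists give a whole-number score within each list, per the file headers from a difference or a sum, the deposited Egr1 list a peak score, and the deposited Pol II files a signed score per gene. The mock library was not analysed here.

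Members and gene lists were chosen with earlier results of these data known. Centres at most 100 bp apart were chained (bedtools 2.31.1 gave the same 113918 sites). Gene starts are Pol II rows moved back 500 bp. Pol II scores were divided by gene width, brought to a common scale with the median ratio of the 1472 genes that exceeded 0.5 in every library, set to 0 where negative, and log2-transformed after adding 0.5. A change of 1 or more was counted. Site finding and Pol II changes were checked on simulated data. Shares have Wilson 95% intervals, and no p-value was computed. Named genes are the 10 with the best lower percentile, the listed genes of replication, mitosis, immediate early and factor lists, up to 4 of each other list, and the 5 largest Pol II rises and falls. Python 3.11.15 with numpy 2.4.6, pandas 2.3.3 and scipy 1.17.1 was used.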

Additional observations from a re-analysis of the deposited data

How the results depend on the processing

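Of 93 values under another setting, 64 stayed within 1.5 times a count or within the 95% interval of a share or median, and 29 did not. The promoter share of members was 26.8% with centres joined within 50 bp, 32.5% with lists of equal length, 24.2% with at least 4 C/EBPalpha lists, 22.2% within 500 bp and 33.7% within 2 kb of a start. The Egr1 share was 6.0% with 50 bp and 3.71% with 200 bp joins, 5.53% with equal lists, 3.12% with no 0 h or 24 h C/EBPbeta centre within 500 bp, 7.15% with at least 4 C/EBPalpha lists and 2.44% with the higher-scoring Egr1 peaks. At least 4 C/EBPalpha lists left 1427 members, 375 genes, 1 replication gene and 1 mitosis gene. Equal lists gave 8 mitosis genes. Fewer sites follow from the stricter rules, and other causes were not tested.

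Added after seeing the data, leaving out the 0 h C/EBPbeta list, the longest, gave 25.7% near a start and 6.21% in Egr1 peaks, and leaving out the 24 h list gave 6562 members, 25.8%, 6.48% and 7 mitosis genes. Median Pol II changes without rescaling were -0.34 at 3 h against 0 h, -0.086 at 3 h against 24 h and 0.30 at 36 h against 24 h. With a pseudocount of 0.05, 3 h against 24 h was -0.43, and with library medians set to 0 it was -0.071. Without the filter on low values, 3 h against 0 h and 3 h against 24 h were both 0.00. No paired analysis was possible because each antibody and time had 1 library. No group had enough libraries to look for outlying samples, and depth limits could not be given, since the files hold no read counts.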
